A study of Arabidopsis thaliana with 8 samples.

Results

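The genes described here build the cuticular wax of Arabidopsis thaliana and the very-long-chain acyl chains it is made from. They are 10 genes of 27655 loci in the expression table, chosen by locus ID: CER6, KCS1, KCR1, PAS2 and CER10 of acyl chain elongation, and CER1, CER3, MAH1, CER4 and WSD1 of wax assembly. RNA was sequenced from shoot apices of 4 groups with 2 libraries each: wild type and the pFD::amiR-PECT1 knockdown, each at 10 and 16 days of age. The knockdown plants express an artificial microRNA against PECT1, an enzyme of phosphatidylethanolamine synthesis, from the promoter of FD, a gene of the shoot apex. All plants grew on plates in short days at 23 °C and were taken at ZT 8, that is 8 hours after lights on. FD is active in only some of the cells of an apex, so the microRNA is not made in every cell sampled. Whether the libraries of a group stem from separate cultures, and how many transgenic lines were used, is not in the labels; p-values therefore measure only the spread between these libraries, which may be technical.

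Waxes are made in epidermal cells. A fatty acid elongase in the endoplasmic reticulum adds carbon pairs to acyl-CoA in a cycle of condensation, reduction, dehydration and a further reduction, and the long acyl-CoAs then enter either an alkane-forming branch or an alcohol-forming branch before export to the cuticle. Very-long-chain acyl groups also go into sphingolipids and phospholipids, which every cell needs, so the elongase subunits serve more than wax. Shoot organs rely on this layer to hold water and to keep neighbouring organs from fusing.

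The depth, estimated from the size of 1 read in low RPKM values, was 15.4 to 18.16 M reads per library. The values are RPKM (reads scaled by transcript length and by library size), so levels of different genes can be compared. PECT1 itself was at 39.2 to 41.3 RPKM in wild type and 34.4 to 37.1 RPKM in the knockdown line, a difference that did not pass the test at either age (limma adjusted p = 0.860 and 0.842). Meristem genes chosen after the data were seen marked the tissue only in part: STM was at 6.31 to 17.5 RPKM and KNAT1 at 6.20 to 10.6 RPKM, whereas the stem cell genes CLV3 and WUS were at most at 0.72 and 0.23 RPKM. In whole apices, fewer cells of a type and less RNA per cell cannot be told apart. Epidermal markers were abundant, with PDF1 at 623 to 926 RPKM and LTP1 at 1486 to 2077 RPKM. The library of knockdown replicate 1 at day 16 had lower values across genes than the rest, with a median-of-ratios factor of 0.885 against 0.945 to 1.08 in the other libraries.

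The 250 bases upstream of the annotated start are shown for CER6, KCS1 and WSD1. CER6 and KCS1 encode enzymes of the same step yet differed in how far they varied between libraries. WSD1 was taken because its range on the scale of log2(RPKM + 1) was 1.80, close to the 1.81 of KCS1. In RPKM the highest value was 34.4 times the lowest for WSD1 and 3.76 times for KCS1. The sequences are read from RefSeq's TAIR10.1 assembly, 5′ to 3′ on the strand of the gene, from chr1:25715025-25715274 (minus strand) for CER6, chr1:59216-59465 (minus strand) for KCS1 and chr5:14767176-14767425 (plus strand) for WSD1. Capitals mark a match to the core of the abscisic acid response element.
CER6: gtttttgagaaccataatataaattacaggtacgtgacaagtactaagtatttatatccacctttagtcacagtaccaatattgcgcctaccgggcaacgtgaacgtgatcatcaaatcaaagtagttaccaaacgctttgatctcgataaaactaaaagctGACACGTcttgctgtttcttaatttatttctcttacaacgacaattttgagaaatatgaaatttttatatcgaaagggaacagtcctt
KCS1: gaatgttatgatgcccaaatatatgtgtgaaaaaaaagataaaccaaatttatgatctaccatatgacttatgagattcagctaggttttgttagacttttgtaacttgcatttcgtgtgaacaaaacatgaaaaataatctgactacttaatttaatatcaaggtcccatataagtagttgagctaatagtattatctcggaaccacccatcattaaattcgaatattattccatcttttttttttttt
WSD1: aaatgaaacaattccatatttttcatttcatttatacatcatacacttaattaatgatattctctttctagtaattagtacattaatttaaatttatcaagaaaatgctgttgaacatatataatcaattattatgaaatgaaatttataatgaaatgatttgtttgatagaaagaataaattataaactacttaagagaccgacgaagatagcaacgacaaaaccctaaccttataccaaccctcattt

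Motifs of 4 kinds were searched on both strands of this window in all 10 genes and in 27444 nuclear loci of the table. The core of the abscisic acid response element (ACGTGGC or ACGTGTC) stood in CER6 and CER4, that is in 2 of 10, and in 6.39% of all windows. The L1 box of epidermal genes (TAAATGCA or TAAATGTA) was in none of the 10 and in 4.49% of all windows. The G box (CACGTG, 6.49%) and the GCC box (GCCGCC, 1.87%) were also in none of the 10. No match says only that these letters are absent from this window.

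The elongase subunits CER10, PAS2 and CER6 had the highest group means of the 10 genes. CER10 (AT3G55360, chromosome 3, 20520930 to 20523098 in TAIR10.1), the enoyl-CoA reductase that closes each elongation cycle, was at 71.3 and 87.1 RPKM in the wild-type pair and 75.6 and 92.3 RPKM in the knockdown pair at day 10. By day 16 its level was 68.4 and 77.3 RPKM in the wild-type libraries against 59.6 and 81.7 RPKM in the knockdown libraries. The genotypes overlapped at both ages. Its annotated span overlaps the opposite-strand locus AT3G55350 by 27 bases; the libraries were strand-specific, but no source used here says how strand entered the counting.

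PAS2 (AT5G10480, chromosome 5, 3297804 to 3300165), the dehydratase of the cycle, was at 66.5 and 91.8 RPKM in the wild-type pair and 67.5 and 69.6 RPKM in the knockdown pair at day 10. At day 16 both knockdown libraries, at 48.4 and 56.1 RPKM, lay below both wild-type libraries, at 67.1 and 66.1 RPKM, as in 25.7% of genes tested. KCR1 (AT1G67730, chromosome 1, 25391338 to 25393889), the ketoacyl-CoA reductase, ranged from 30.8 RPKM in replicate 1 of the knockdown at day 16 to 53.6 RPKM in replicate 2 of wild type at day 10. Within a library the reductases and the dehydratase kept to a narrow range of ratios, with CER10 at 1.53 to 1.94 times KCR1 and PAS2 at 1.19 to 1.71 times KCR1.

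Of the condensing enzymes, CER6 (AT1G68530, chromosome 1, 25712414 to 25715024), the 3-ketoacyl-CoA synthase best known for stem and pollen wax, was at 65.9 and 58.7 RPKM in the wild-type libraries against 60.8 and 74.2 RPKM in the knockdown libraries at day 10. By day 16 its level was 45.3 and 58.1 RPKM in the wild-type pair and 35.7 and 59.3 RPKM in the knockdown pair. Within each genotype both libraries of day 16 lay below both libraries of day 10, by as little as 58.1 against 58.7 RPKM in wild type. Such an order was seen in 10.6% (wild type) and 17.9% (knockdown) of genes tested. Across the genotypes the ages overlapped for CER6, as 59.3 RPKM (knockdown, day 16) lay above 58.7 RPKM (wild type, day 10). KCS1 (AT1G01120, chromosome 1, 57164 to 59215), a synthase of broad chain-length range, was lower, at 9.82 to 37.0 RPKM, or 0.22 to 0.50 times CER6 in the same library.

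The 3-ketoacyl-CoA synthase family has 21 genes, which give an elongase its chain-length specificity. Their summed level was 527.5 to 803.3 RPKM per library. CER6 (also named KCS6) was the sixth and KCS1 the ninth most abundant by mean RPKM, with 6.77% to 10.2% and 1.54% to 5.06% of that sum. KCS10 (also named FDH), an epidermal synthase needed to keep organs from fusing, held 23.7% to 29.3% and KCS8 held between 13% and 22.2%. KCS7 and KCS14 were listed at 0 in all 8 libraries, and KCS18, known from seed oil, reached at most 0.07 RPKM. KCS5 is a close paralog of CER6, and no source used here says how reads shared by paralogs were treated.

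**Figure D1:**
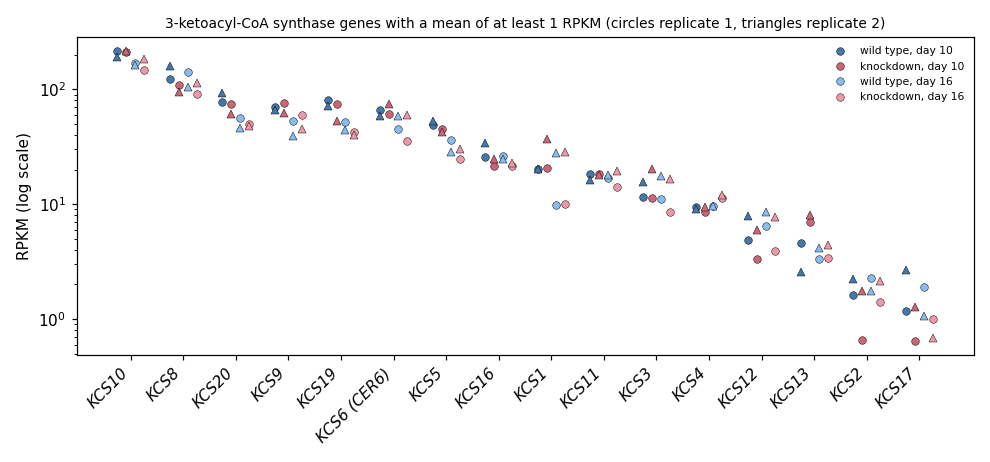
RPKM (log axis) of the 16 synthase genes with a mean of at least 1 RPKM, ordered by that mean, for the 8 libraries; circles are replicate 1, triangles replicate 2, and colours mark genotype and age. KCS10 is highest in each library, at 148 to 215 RPKM, and KCS1 shows the widest scatter among the synthases above 10 RPKM on average, at 9.82 to 37.0 RPKM.

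In the alkane-forming branch CER1 and CER3 were expressed at similar levels. CER1 (AT1G02205, chromosome 1, 418416 to 422579), which makes alkanes in a complex with CER3, was at 36.1 and 47.0 RPKM in the wild-type libraries against 32.9 and 37.8 RPKM in the knockdown libraries at day 10, and at 44.6 and 35.5 RPKM against 33.4 and 45.1 RPKM at day 16. CER3 (AT5G57800, chromosome 5, 23420184 to 23424117), its partner, was at 45.5 and 51.7 RPKM in the wild-type pair and 44.8 and 35.2 RPKM in the knockdown pair at day 10, and at 41.3 and 32.0 RPKM against 36.5 and 36.1 RPKM at day 16. The ratio of CER1 to CER3 was 0.74 to 1.07 in the 4 libraries of day 10 and 0.91 to 1.25 in the 4 of day 16, ranges that overlap. MAH1 (AT1G57750, chromosome 1, 21383812 to 21385709), a cytochrome P450 that turns alkanes into secondary alcohols and ketones, was listed at 0 in all 8 libraries, where 3 reads would have given an estimated 0.087 to 0.103 RPKM.

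Of the alcohol-forming branch, CER4 and WSD1 were low in all 8 libraries. CER4 (AT4G33790, chromosome 4, 16204096 to 16207956), the reductase that makes primary alcohols, was listed at 0 and at 0.14 RPKM in wild type and at 0.09 RPKM and 0 in the knockdown line at day 10. By day 16 its level was 0.06 and 0.36 RPKM in the wild-type libraries against 0.46 and 0.34 RPKM in the knockdown libraries, which corresponds to an estimated 2, 12, 14 and 12 reads. The ages overlapped, as 0.06 RPKM lay below 0.14 RPKM. FAR1, another alcohol-forming reductase, had 24.98 to 41.8 RPKM in the same libraries.

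WSD1 (AT5G37300, chromosome 5, 14767426 to 14770396), the wax ester synthase that joins those alcohols to acyl groups, was at 0.20 and 0.08 RPKM in the wild-type pair and 0.14 and 1.65 RPKM in the knockdown pair at day 10. By day 16 its level was 0.38 and 1.1 RPKM in the wild-type libraries against 0.38 and 2.75 RPKM in the knockdown libraries. The 3 highest values were all in replicates labelled 2, and they rest on an estimated 59, 39 and 103 reads against 3 to 14 reads in each of the other 5 libraries.

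**Figure D2:**
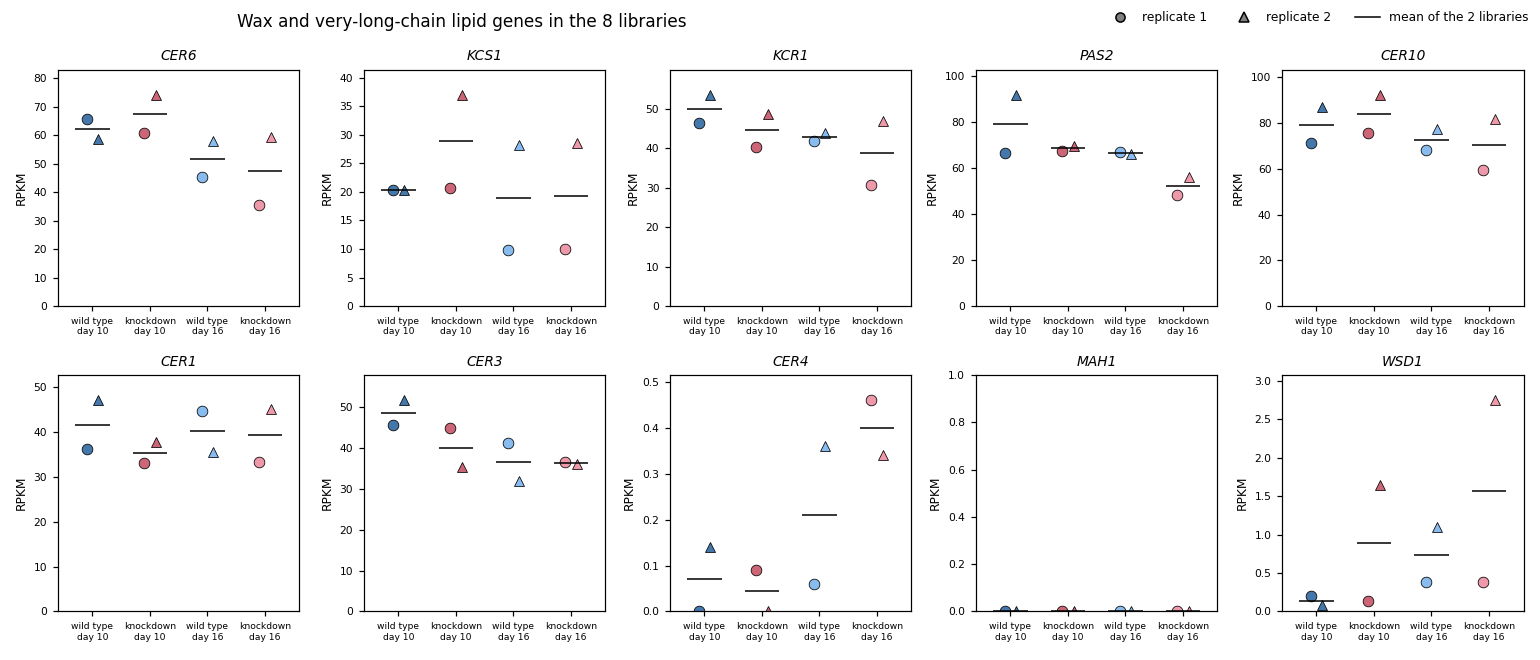
RPKM of the 10 genes in each library, by genotype and age; circles are replicate 1, triangles replicate 2 and bars the mean of the 2 libraries. The elongase subunits and CER1 and CER3 lie between 30.8 and 92.3 RPKM apart from KCS1, whereas CER4, MAH1 and WSD1 stay at or below 2.75 RPKM.

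By group mean the order was CER10, PAS2 and CER6 first in all 4 groups, with KCS1 seventh and WSD1, CER4 and MAH1 last. The order within the middle was not fixed: KCR1, CER3 and CER1 overlapped their neighbours in the wild type of day 10, at group means of 50.0, 48.6 and 41.6 RPKM. CER10 and PAS2, at 79.2 and 79.1 RPKM there, could not be ordered either. KCS1 lay apart from CER1, its neighbour above, in the wild type of day 10 (20.3 ± 0.0354 against 41.6 ± 7.68 RPKM, SD, n = 2), but not in the knockdown line at the same age, at 28.8 ± 11.5 against 35.4 ± 3.43 RPKM.

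The comparison of the genotypes asks whether the microRNA against PECT1 goes with other levels of these genes in the apex. No member passed at day 10, when 13 of 17467 genes tested (0.0744%) did so. The test was limma on log2(RPKM + 1), with a Benjamini-Hochberg adjusted p under 0.05 over all genes that had at least 1 RPKM in at least 2 libraries. Of the 10 members, 8 met that limit, and CER4 and MAH1 did not. The log2 fold changes of the 8 ran from -0.28 ± 0.184 (SE) for CER3 to 0.61 ± 0.515 for WSD1, with adjusted p = 0.778 to 0.951 and none at an unadjusted p under 0.05, a limit met by 6.66% of all genes tested. Their median was -0.04, against -0.02 for all genes tested. CER3 was lower and KCS1 higher in both knockdown libraries than in both wild-type libraries, each by under 1 RPKM at the nearest pair; 40.9% of all genes tested had groups that did not overlap.

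The intervals show what sizes of change on the log2(RPKM + 1) scale these libraries allow. For CER1 the log2 fold change at day 10 was -0.22, with a 95% interval of -0.68 to 0.25, and for CER6 it was 0.11 (-0.42 to 0.64). KCS1 and WSD1 were far less certain, at 0.43 (-0.72 to 1.58) and 0.61 (-0.54 to 1.76). With 1 library left out they ran from 0.03 to 0.84 and from 0.002 to 1.22. A threshold that is not met therefore does not show that KCS1 or WSD1 were alike in the genotypes. At 0.08 to 2.75 RPKM, adding 1 narrows the changes of WSD1. Its interval therefore does not bound the fold in RPKM, where the ratio of group means at day 10 was 6.39.

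The authors' deposited table of genes higher in the knockdown line at day 10 lists WSD1 with a fold of 6.14 and a p-value of 0.00952. In the RPKM values the ratio of the group means was 6.39, from 0.895 and 0.140 RPKM, and replicate 1 of the knockdown line, at 0.14 RPKM, lay between the wild-type values of 0.08 and 0.20 RPKM. With knockdown replicate 2 of day 10 left out, the limma log2 fold change of WSD1 came to 0.002, against 0.61 with all libraries. No other member is in any of the authors' 4 deposited tables of changed genes.

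At day 16 no member passed either, when 20 genes (0.115%) did, and none was at an unadjusted p under 0.05 (6.37% of all genes). The median log2 fold change of the 8 was -0.05, against -0.11 for all genes tested, a shift that became -0.002 under median-of-ratios scaling. PAS2 was the furthest below 0, at -0.35 ± 0.174 (SE; limma adjusted p = 0.811), and was the only member whose groups did not overlap; 34.1% of all genes did not, and 25.7% were lower in this way. After scaling it was still the furthest below 0, at -0.22. WSD1 was the furthest above 0, at 0.42 ± 0.515 (adjusted p = 0.892). CER3 was at -0.0009 ± 0.184, which scaling turned to 0.13, and KCS1 was at 0.02 ± 0.515 (adjusted p = 0.999 and 0.995).

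Averaged over both ages, 43 genes (0.246%) passed and no member did (none at an unadjusted p under 0.05, against 2093 or 12% of all genes), with PAS2 lowest at -0.27 ± 0.123 (limma adjusted p = 0.431) and WSD1 highest at 0.51 ± 0.364 (adjusted p = 0.589). In none of the 8 did all 4 knockdown libraries lie beyond all 4 wild-type libraries, as 6.67% of genes tested did. The test of a difference in genotype effect between the ages called no member (limma interaction, adjusted p = 1 for all 8) and none at an unadjusted p under 0.05. Over all genes it called 0 (0.0%), with 288 (1.65%) at an unadjusted p under 0.05.

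**Figure D3:**
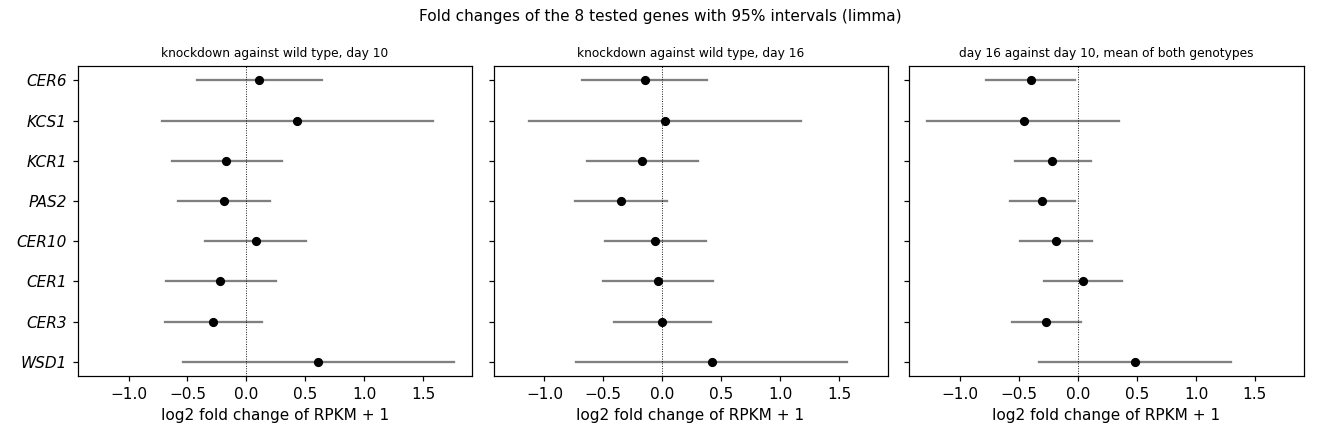
Log2 fold change of RPKM + 1 (points) with 95% intervals (lines) for the 8 tested genes, for the genotypes at day 10, at day 16, and for day 16 against day 10 over both genotypes. KCS1 and WSD1 have the widest intervals, and of all 24 intervals only those of CER6 and PAS2 for age lie below 0, before adjustment for the number of genes.

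The other factor of the design is age. No member passed for day 16 against day 10 in wild type (39 genes passed, 0.223%), in the knockdown line (47, 0.269%) or over both genotypes (242, 1.39%). At an unadjusted p under 0.05 there were 0 members in wild type, 1 in the knockdown line (CER6) and 2 over both (CER6 and PAS2), against 7.46%, 8.55% and 13.8% of all genes. Over both genotypes 6 of the 8 members had a negative log2 fold change, with a median of -0.24 against 0.05 for all genes tested. CER6 was at -0.40 ± 0.167 (SE) and PAS2 at -0.31 ± 0.123, with unadjusted p = 0.0370 and 0.0320 and limma adjusted p = 0.327 and 0.307. CER1 was at 0.04 ± 0.147, KCS1 at -0.46 ± 0.364 and WSD1 at 0.48 ± 0.364. With 1 library left out, the log2 fold change with age was -0.58 to -0.22 for CER6, -0.42 to -0.19 for PAS2, -0.82 to -0.11 for KCS1 and 0.12 to 0.84 for WSD1. Non-overlapping ages were found for CER3, CER6 and KCR1 (lower) and WSD1 (higher) in wild type, where 42.6% of genes tested did not overlap and 10.6% were lower in this way, and for CER6 and PAS2 (lower) in the knockdown line, where 33.9% did not and 17.9% were lower. The 4 libraries of day 16 did not lie wholly beyond the 4 of day 10 for any member, against 7.81% of genes tested.

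Other genes of the pathway were counted from lists of elongation, modification, export, regulation, cutin, suberin and ceramide synthesis. Among 28 other elongation genes, 23 were tested and 2 passed as lower with age over both genotypes, whereas 0.286% of all genes tested did. KCS5 was at 49.0 and 52.5 RPKM in the wild-type pair and 45.1 and 42.6 RPKM in the knockdown pair at day 10, and at 36.0 and 28.3 RPKM against 24.9 and 30.5 RPKM at day 16 (log2 fold change -0.65 ± 0.124, SE; limma adjusted p = 0.0369). KCS20, a synthase with a role in root suberin and wax, fell from 78.0 and 92.5 RPKM (wild type) and 74.9 and 61.4 RPKM (knockdown) to 56.0 and 45.8 RPKM and to 49.7 and 48.1 RPKM (-0.60 ± 0.120; 0.0448). In both genes all 4 libraries of day 16 lay below all 4 of day 10, as in 2.63% of genes tested. Both are named because they passed the test of age in these same libraries, so this order adds no separate support. KCS10 had 203 ± 17.7 and 214 ± 0.629 RPKM at day 10 and 166 ± 3.24 and 165 ± 24.5 RPKM at day 16 in wild type and the knockdown line (SD, n = 2; limma adjusted p = 0.168). KCS8 ranged from 91.3 to 160 RPKM and CER26, a CER2-like protein needed for the longest chains, from 69.1 to 92.4 RPKM, and neither passed.

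Of the 6 export genes tested, 2 passed as lower with age over both genotypes (0.286% of all genes tested did), both encoding lipid-transfer proteins anchored at the plasma membrane. LTPG2 fell from 87.6 and 86.5 RPKM (wild type) and 76.7 and 70.6 RPKM (knockdown) to 51.4 and 42.6 RPKM and to 58.6 and 52.0 RPKM (log2 fold change -0.64 ± 0.108, SE; limma adjusted p = 0.0216). LTPG1 fell from 255 and 260 RPKM and 288 and 297 RPKM to 198 and 199 RPKM and to 200 and 225 RPKM (-0.42 ± 0.0856), with an adjusted p of 0.049999, at the edge of the threshold. The transporter genes of the list did not pass, with ABCG11 at 22.6 to 37.7 RPKM. These calls were fragile: of 15 alternative settings, 6 ended the call of LTPG2, 8 that of KCS5 and 11 each those of KCS20 and LTPG1 (adjusted p = 0.0516 to 0.179), while the log2 fold changes stayed between -0.37 and -0.74 with any library left out. Without replicate 2 of the knockdown at day 16, for example, all 4 missed the threshold (adjusted p = 0.0558 to 0.115).

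**Figure D4:**
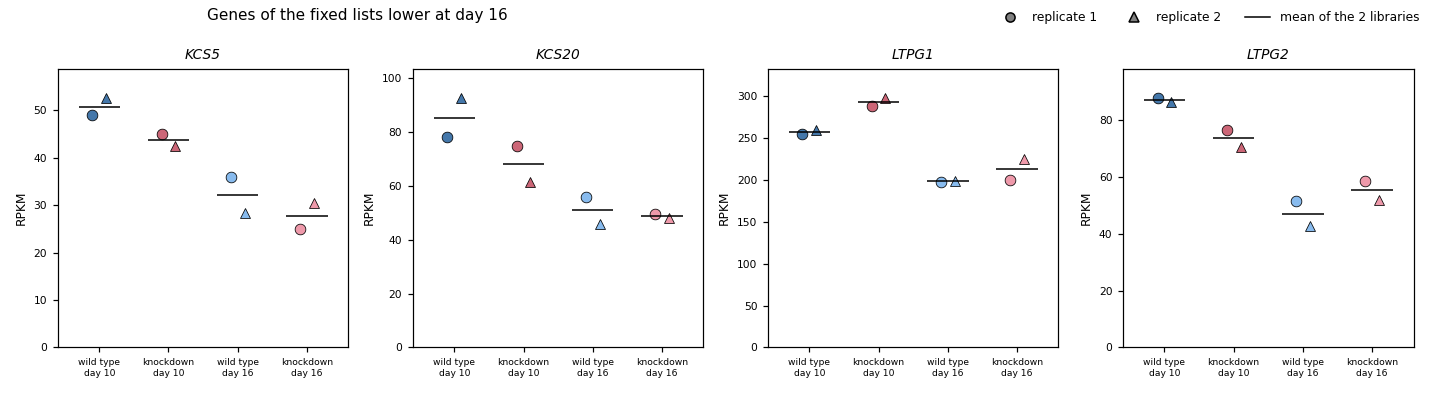
RPKM of KCS5, KCS20, LTPG1 and LTPG2 in each library, by genotype and age; circles are replicate 1, triangles replicate 2 and bars the mean of the 2 libraries. In each gene the 4 libraries of day 16 lie below the 4 of day 10. The genes are shown because they passed the test of age in these same libraries.

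No gene of the remaining pathway lists passed in any comparison. Of 11 cutin genes all had a negative log2 fold change with age, with a median of -0.30, and 6 were at an unadjusted p under 0.05, where 4.99% of all genes tested were lower at that limit. DCR, an acyltransferase of cutin synthesis, was at 86.5 to 140 RPKM, HTH at 56.8 to 153 RPKM and the cytochrome P450 gene CYP86A2 at 46.7 to 92.7 RPKM. Of the 12 modification genes 6 were tested and none passed; CB5-D and CB5-E, cytochrome b5 proteins that serve electron transfer in the endoplasmic reticulum, were at 191 to 247 and 218 to 248 RPKM. Suberin genes were low or listed at 0, with ASFT at 0.41 to 1.42 RPKM and CYP86B1 listed at 0 throughout. The ceramide synthase genes LOH1, LOH2 and LOH3, whose products take up acyl chains into sphingolipids, were at 8.92 to 13.8, 3.99 to 7.57 and 2.21 to 3.97 RPKM. KCS13, named here because it is in the authors' deposited table of genes higher at day 10 (fold 2.13, p-value 0.000396), was at 4.57 and 2.57 RPKM in the wild-type libraries against 7.03 and 8.07 RPKM in the knockdown libraries, and did not pass in limma (0.94 ± 0.267, SE; adjusted p = 0.614).

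The levels of tissue markers are given here beside these values. The summed level of 6 epidermal markers, which include KCS10, was 3160 to 3290 RPKM at day 10 and 2510 to 2780 RPKM at day 16, and 3090 to 3480 RPKM against 2340 to 3020 RPKM after scaling. Most of this sum was LTP1 and PDF1, and ATML1, PDF1, PDF2 and ACR4 each overlapped between the ages. All 6 had a negative log2 fold change, with a median of -0.24, the same as that of the members, and none passed. Medians were also -0.23 for the ceramide synthase genes and -0.30 for the cutin genes. At an unadjusted limma p under 0.05, 3 epidermal markers were lower (LTP1, KCS10 and PDF1), as were 3 mesophyll and 2 vascular markers. Of all genes tested 4.99% were lower at that limit. The sum of 6 leaf mesophyll markers was 20400 to 25800 RPKM at day 10 and 16400 to 21300 RPKM at day 16. All 6 had a negative log2 fold change, with a median of -0.43. Of these, 2 (RBCS1A and RBCS3B) passed as lower, as did 0.286% of all genes tested. Root markers had RHD6 at 0 throughout and a sum of 742 to 963 RPKM at day 10 and 446 to 514 RPKM at day 16, nearly all of it PYK10, which passed as lower. Vascular markers summed to 93.5 to 122 RPKM at day 10 and 91.1 to 124 RPKM at day 16; 5 of the 6 had a negative log2 fold change, with a median of -0.27, and none passed, while SUC2 was at 0.40 ± 0.178 (SE; limma adjusted p = 0.367). The meristem gene STM was at 6.31 to 9.05 RPKM in the 4 libraries of day 10. In the 4 of day 16 it was at 12.33 to 17.46 RPKM, without overlap, as in 7.81% of genes tested. The meristem gene KNAT1 overlapped between the ages, at 6.20 to 10.6 RPKM against 6.48 to 10.27 RPKM. Both genes were chosen after the data were seen. The part of these markers in the values of the wax genes was not tested.

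In 3 of the 4 groups the 2 libraries differed more for KCS1 and WSD1 than for the other 6 members tested. KCS1 was at 20.30 and 20.25 RPKM in the replicates of wild type at day 10, but at 20.7 and 37.0 RPKM in those of the knockdown line at that age. It was at 9.82 and 28.2 RPKM in the wild-type pair and 10.05 and 28.6 RPKM in the knockdown pair at day 16. In these 3 groups replicate 2 was the higher library, by 0.81, 1.43 and 1.42 on the log2(RPKM + 1) scale, and 94.5%, 99.2% and 98.3% of genes tested differed less between the same replicates.

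WSD1 was likewise higher in replicate 2 of the same 3 groups, by 1.22 in the knockdown line at day 10, 0.61 in wild type at day 16 and 1.44 in the knockdown line at day 16. A difference of at least 1 on this scale was seen in 2.3% (wild type) and 3.13% (knockdown) of genes tested at day 10, and in 2.08% and 4.59% at day 16, and the median absolute difference was 0.21 to 0.32. CER6 followed in part, with replicate 2 higher by 0.28, 0.35 and 0.72 in those 3 groups. It was lower by 0.17 in replicate 2 of wild type at day 10. Of genes tested, 62.0%, 73.7% and 87.7% differed less than CER6 in the 3 groups. The median signed difference of all genes tested was 0.10, 0.01 and 0.25 there. CER10 (0.29, 0.17 and 0.45) and KCR1 (0.27, 0.07 and 0.60) were also higher in replicate 2 of these groups. In wild type at day 10 they were higher in replicate 2 too, by 0.28 and 0.20. CER1 and CER3 did not share the order of KCS1 and WSD1, since in wild type at day 16 replicate 2 was lower in both, by 0.32 and 0.36. Over all 8 libraries the range was 1.81 for KCS1 and 1.80 for WSD1, wider than in 95.7% and 95.6% of genes tested, and 0.50 for CER1, wider than in 18.7%. WSD1 met the limit of 1 RPKM in 2 libraries only through those where it was high, at 1.65, 1.1 and 2.75 RPKM. Its place among the genes tested follows in part from that filter.

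Among 13 regulators 10 were tested and none passed in any comparison, but some differed between the same libraries. DEWAX, an AP2/ERF factor that represses wax genes, was at 200 and 193 RPKM in the wild-type libraries of day 10, against 185 and 48.3 RPKM in the knockdown libraries. By day 16 its level was 157 and 100.1 RPKM in the wild-type libraries against 162 and 78.4 RPKM in the knockdown libraries, so that its 3 lowest values fell in the 3 libraries with the highest KCS1. MYB96, an activator of wax genes that was chosen after its values were seen, was at 3.39 and 6.77 RPKM in the wild-type pair and 4.17 and 13.5 RPKM in the knockdown pair at day 10, and at 10.04 and 9.69 RPKM against 4.74 and 12.6 RPKM at day 16. In wild type, then, MYB96 was higher in replicate 2 at day 10 but not at day 16, unlike KCS1. MYB94 and MYB30 of the same list ranged over the 8 libraries from 6.32 to 8.93 and from 9.49 to 15.3 RPKM. The antenna gene LHCB1.1 of the mesophyll list, also chosen after its values were seen, was at 726, 690 and 588 RPKM in the 3 libraries with the highest KCS1 and at 1374 to 2181 RPKM in the other 5. Of the 6 mesophyll markers, LHCB1.1, LHCB2.1 and CAB3 were lower in those 3 libraries than in all others, whereas RBCS1A, RBCS3B and CA1 did not separate them. The split into these 3 libraries and the other 5 was taken from the KCS1 values. How many of all genes tested separate them in this way was not counted, so these orders are a description only. The part of any of these in the KCS1 values was not tested. MYB16, an epidermal regulator, and CER9, a ubiquitin ligase that limits cuticle lipids, ranged from 8.87 to 17.1 RPKM and from 19.5 to 31.6 RPKM.

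**Figure D5:**
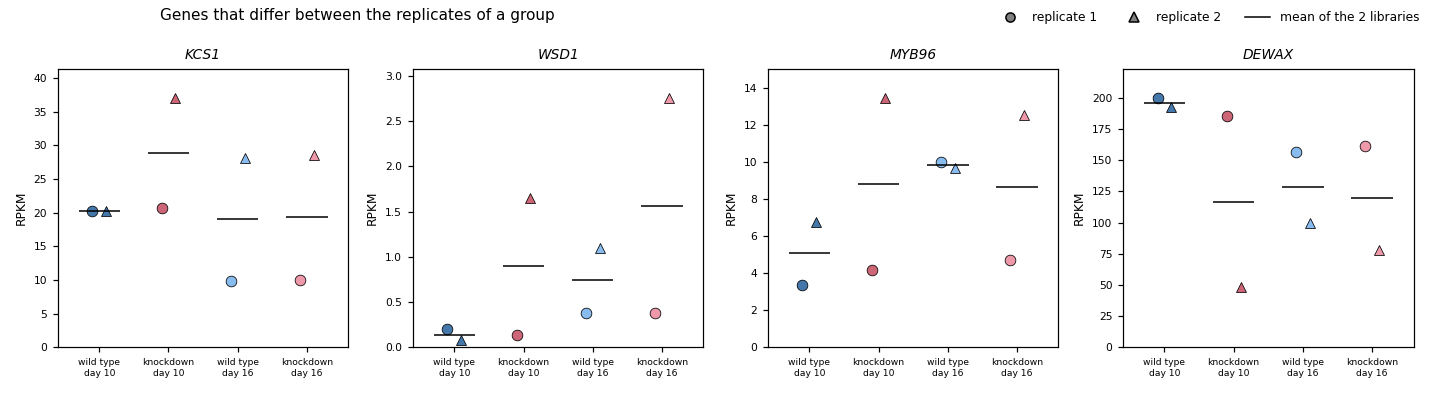
RPKM of KCS1, WSD1, MYB96 and DEWAX in each library, by genotype and age; circles are replicate 1, triangles replicate 2 and bars the mean of the 2 libraries. KCS1 and WSD1 are higher and DEWAX lower in replicate 2 of the knockdown at both ages and of wild type at day 16, while wild type at day 10 has close replicates for KCS1 and DEWAX.

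The 5 genes closest to KCS1 in their course over the 8 libraries, by the root mean square difference of centred log2(RPKM + 1), were AT5G12940 (0.240), AT5G19230 (0.265), AT3G45730 (0.272), the DREB-type factor gene DEAR3 (0.273) and the clock-related MYB-like gene RVE2 (0.301). DEAR3 was at 11.9 and 17.5 RPKM in the wild-type libraries against 14.6 and 25.4 RPKM in the knockdown libraries at day 10, and at 9.90 and 21.7 RPKM against 11.4 and 21.1 RPKM at day 16. For WSD1, added after the values were seen because its range on this scale was nearly as wide, the closest were IAR3 (0.0855), an amidohydrolase of hormone conjugates, CYP94C1 (0.143), which oxidises jasmonoyl-isoleucine, AT3G16800 (0.153), FAMT (0.164) and ILL6 (0.171). At 0.08 to 2.75 RPKM, adding 1 narrows the course of WSD1, so this list depends on the pseudocount, and no other was tried for it. In RPKM the highest value of WSD1 was 34.4 times its lowest. IAR3 was at 11.7 and 8.18 RPKM in the wild-type pair and 9.71 and 24.5 RPKM in the knockdown pair at day 10, and at 12.6 and 18.7 RPKM against 12.4 and 37.0 RPKM at day 16.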

How the data were processed

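For 27655 loci and 8 libraries the authors deposited RPKM, per the file headers (the file name says RPM), with a separate row order for each library, so values were joined by locus. Per the labels' protocols, trizol was used for RNA extraction and a directional kit for the mRNA libraries. TAIR10 is the build named in the submitters' processing notes; which aligner and counter were used is not stated in them. Per the file headers, 4 further deposited tables hold the authors' changed genes, each with its fold and p-value, from a test that no source used here names. For lower genes the authors deposited the fold as a score with a minus sign, per the file headers.

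Symbols, positions and exon lengths came from RefSeq's TAIR10.1 annotation, which holds 27445 of the loci. Depth was the value at which most low RPKM values of short single-transcript genes lay within 0.1 of a whole read (98.8% to 99.8% did); lengths of other genes are less certain, so reads were estimated and no count test was run. Genes were tested with limma 3.58.1 in R 4.3.3 on log2(RPKM + 1), two-sided, over 17467 genes. The prior variance followed the mean level, with a coefficient per group and 1 shared estimate of spread (4 residual and 5.8 prior degrees of freedom). The fit was also run on simulated data with independent noise. That noise lacks the replicate differences shared between groups here, so the run does not show how often the test errs in these data. Fold changes on the log2(RPKM + 1) scale understate those of low genes. SD and n refer to the 2 libraries of a group.

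The members, lists and tests were chosen with earlier results of these data known. Lists held 118 entries, of which 7 were left out because the annotation does not pair the locus with the symbol. Named besides the members were list genes that passed, the 3 of each list with the highest mean RPKM, and the 5 genes closest to the member with the widest range (each with its own range of at least 1); others are marked as chosen later. The labels do not say that replicate numbers pair the libraries, so the tests have no replicate block.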

Additional observations from a re-analysis of the deposited data

How the results depend on the processing

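No member passed in any of the 117 fits of a comparison under a setting that were run (smallest adjusted p = 0.127). Of 17 alternatives 16 were planned and 1, the crossed pairing, was chosen after seeing the data; the latter was run for age in wild type only, and fitting only the compared groups was run for the 4 comparisons of 2 groups. Pseudocounts of 0.5 and 4 and the filter at 5 RPKM kept every count of passing genes within 1.5 times, as did fitting only the compared groups for the genotypes. With no filter on low values the counts were 11 at day 16, 24 for the mean genotype effect, 12 and 15 for age in wild type and the knockdown line, and 114 for age over both; quantile normalization gave 12 at day 16, median-of-ratios scaling 18 for age in wild type, and fitting only the compared groups 22 and 27 for age in wild type and the knockdown line. The replicate block gave 20 at day 10, 68 for the mean genotype effect, and 89, 109 and 548 for age in wild type, in the knockdown line and over both; it added KCS9 and KCS19 to the elongation genes lower with age over both genotypes, and called LTPG2 lower in wild type. Whether replicate numbers pair the libraries is unsettled: differences between replicates correlated across genes at 0.198, 0.303 and 0.329 among both knockdown groups and wild type at day 16, but wild type at day 10 gave 0.185, 0.092 and -0.239 with them. The crossed pairing of the wild-type replicates gave 158, among them 1 elongation and 1 export gene. It was chosen after seeing the data and follows the correlation of -0.239 between the wild-type ages. A higher count was thus favoured in advance and adds no support for these calls. With 1 library left out, the counts were 7 to 26 (day 10), 11 to 19 (day 16), 18 to 48 (mean), 7 to 54 (age, wild type), 16 to 53 (age, knockdown) and 75 to 349 (age, both). No member with a sign that turned had passed in any setting. With scaling, day 16 log2 fold changes turned to 0.09 for CER1, 0.13 for CER3 and 0.07 for CER10, and CER1 for age to -0.003; with quantile normalization CER1 and CER3 at day 16 turned to 0.01 and 0.05. With 1 library left out, the ranges that crossed 0 were, at day 10, -0.03 to 0.25 for CER6, -0.06 to 0.23 for CER10 and -0.42 to 0.04 for PAS2; at day 16, -0.25 to 0.18 for CER1, -0.18 to 0.18 for CER3, -0.51 to 0.21 for CER6, -0.28 to 0.17 for CER10, -0.69 to 0.74 for KCS1, -0.47 to 0.13 for KCR1 and -0.30 to 1.14 for WSD1; and for age, -0.06 to 0.15 for CER1. The cause was not tested. At this depth CER4 and MAH1 rest on few or no reads, as does WSD1 in 5 of 8 libraries.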
